A study of Homo sapiens with 6 samples.

Results

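The 6 genes described here are MT-CYB, MT-CO1, MT-CO2, MT-CO3, MT-ATP6 and MT-ATP8, the mitochondrially encoded subunit genes of respiratory complexes III, IV and V. They were taken by symbol, as the rows of the count table whose names begin with MT-CO, MT-CYB or MT-ATP, and are 6 of 19610 rows and 6 of 13 mitochondrially encoded ones. Transcripts were measured by RNA sequencing in SH-SY5Y, an established human neuroblastoma line labelled wild type. Treated cells received SGC707, which inhibits PRMT3, an enzyme that methylates arginines in proteins, and control cells received the solvent DMSO; each group has 3 libraries, lettered A to C. The sources used here give no dose or duration and do not say whether the libraries came from separate cultures. The p-values therefore rest on how these 6 libraries vary, which may be technical variation only.

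Human mitochondrial DNA is transcribed from both strands into long polycistronic RNAs, from which tRNAs are cut out to release the mRNAs between them. The respiratory complexes that pump protons, and the ATP synthase that uses the gradient, combine a few subunits made inside the mitochondrion with many nuclear-encoded ones. Complex III passes electrons to cytochrome c, complex IV passes them on to oxygen, and complex V makes ATP. SH-SY5Y cells are often used as neuron-like cells.

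All 6 genes lie on the plus strand of the mitochondrial chromosome (GRCh38, GENCODE release 29), and none has an intron. MT-CO1 spans chrM:5904-7445, MT-CO2 chrM:7586-8269, MT-ATP8 chrM:8366-8572, MT-ATP6 chrM:8527-9207, MT-CO3 chrM:9207-9990 and MT-CYB chrM:14747-15887. MT-ATP8 and MT-ATP6 are read from 1 mRNA in overlapping frames and share 46 bases, or 22.2% of MT-ATP8 and 6.75% of MT-ATP6. The shared stretch is shown because reads within it belong to both genes; capitals mark the MT-ATP6 start codon at its 5′ end and the MT-ATP8 stop codon at its 3′ end. The next boundary is shown because MT-ATP6 and MT-CO3 share 1 base there; capitals mark the stop codon of the first gene run into the start codon of the second.
MT-ATP8 and MT-ATP6, chrM:8527-8572: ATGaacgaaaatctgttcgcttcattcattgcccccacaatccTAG
MT-ATP6 and MT-CO3, chrM:9193-9221: cacgacaacacaTAATGacccaccaatca

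The 3′ ends of the coding sequences show how far these mRNAs depend on their tails. The last 21 bases are given for MT-CYB and the complex IV genes, with the encoded part of the stop codon in capitals; the whole stop codons of MT-ATP8 and MT-ATP6 stand in the stretches above. MT-CYB and MT-CO3 end in a single T, which the poly(A) tail completes to a stop codon, and MT-CO1 ends in AGA, which in human mitochondria also marks the end of translation. The labels' protocols say that mRNA was isolated before library preparation, without saying how.
MT-CYB, chrM:15867-15887: acaaaatactcaaatgggccT
MT-CO3, chrM:9970-9990: ccatctattgatgagggtctT
MT-CO1, chrM:7425-7445: cccgtatacataaaatctAGA
MT-CO2, chrM:8249-8269: gggcccgtatttaccctaTAG

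Nuclear DNA holds copies of these genes whose reads can be hard to tell from mitochondrial ones. A block on chromosome 1 carries MTCO1P12, MTCO2P12, MTATP8P1, MTATP6P1 and MTCO3P12 between 631074 and 634922. MTCO1P12 is identical to MT-CO1 at 1522 of 1542 bases and MTATP6P1 to MT-ATP6 at 671 of 681. MTCO3P12 covers part of MT-CO3 and is identical at 537 of its own 547 bases. The closest annotated copy of MT-CYB, MTCYBP35 on chromosome 5, is identical at 978 of 1141 bases. These copies have no rows in the count table and were not analysed here. The sources used here do not say how reads shared with them were counted.

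Total counts were 11658728 to 12127187 in the SGC707 libraries and 11863696 to 15437602 in the DMSO libraries, and counts on nuclear genes were 7559322 to 8999358 with SGC707 and 6066305 to 6327895 with DMSO. Mitochondrial genes took 24.3% to 37.7% of the counts with SGC707 and 46.7% to 60.7% with DMSO, so each level is given both as a percent of all counts and per 1000 nuclear counts. SGC707 C stood apart: across 11390 nuclear genes, the Spearman correlation between transcript GC content and the library's centred log2 level was -0.77 there. In SGC707 A and B it was 0.53 and 0.34, and in the DMSO libraries it lay between -0.13 and 0.23. No library repeated another: within a group, chi-square over degrees of freedom was 12.4 or more. Of 14 markers of adrenergic neuroblastoma, 13 passed the filter on low counts, 11 of them with negative log2 fold changes (median -0.31, and 0.40 with all counts as the library size), and TH had 0 counts in every library; the summed level was 9176 to 9659 per 1000000 nuclear counts with SGC707 and 10969 to 13192 with DMSO. Of 21 markers of mesenchymal, Schwann, epithelial, blood and liver cells, SOX10, KRT5, KRT14, PTPRC, CD3E and ALB had 0 counts, 7 passed the filter (4 negative, median -0.26, and 0.39 with all counts as the library size), and the summed level was 262 to 347 with SGC707 and 261 to 284 with DMSO. Of the adrenergic markers 0 were called by edgeR (3 lower at an unadjusted p under 0.05), 2 lower by DESeq2 and 5 lower by edgeR without SGC707 C. Of the other markers 0 were called in these fits (2 lower at an unadjusted p under 0.05). Of all tested genes edgeR called 0.0246% in either direction, and 12.8% had an unadjusted p under 0.05 in either direction. DESeq2 called 2.04% of tested genes lower, and edgeR without SGC707 C called 5.53% lower. The part of either marker list in the results below was not tested.

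Together the 6 genes took a smaller part of the SGC707 libraries than of the DMSO libraries, on both scales. They made up 12.9%, 13.3% and 18.3% of all counts in SGC707 libraries A, B and C, against 25.2%, 27.2% and 21.3% in DMSO libraries A, B and C, and the means were 14.8% ± 3.04 with SGC707 and 24.6% ± 2.998 with DMSO (SD, n = 3 each). The groups did not overlap, and the two-sided exact permutation p was 0.1, the smallest that 3 libraries against 3 allow. Each library's 95% Wilson interval spanned at most 0.0470 percentage points and covers counting error only. Per 1000 nuclear counts there were 169.9, 177.4 and 293.9 counts of the 6 genes in SGC707 libraries A, B and C, and 540.8, 693.2 and 400.2 in DMSO libraries A, B and C. The mean log2 of that quantity differed by -1.36 (exact permutation p = 0.1), and SGC707 C and DMSO C came nearest to each other across the groups. Less mitochondrial RNA per cell and more nuclear mRNA per cell cannot be told apart in such shares, nor can either be told from a change in the mix of cells.

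No member passed the gene test. In edgeR's quasi-likelihood test over 12196 genes, with TMM scaling and Benjamini-Hochberg adjustment, 0 of the 6 genes had an adjusted p under 0.05, where 0.0246% of all tested genes were called in either direction. All 6 log2 fold changes were negative, with a median of -1.39 beside 0.02 over all tested genes. At an unadjusted p under 0.05 there were 6 of 6 members and 1555 tested genes, or 12.8%. In normalised CPM (counts per 1000000 of the TMM-scaled library size) every SGC707 library lay below every DMSO library for 6 of 6 members. That was so for 9.78% of tested genes. As a plain percent of all counts MT-ATP8 overlapped between the groups. Ordered from the lowest log2 fold change, the 6 ranked between 35 and 140 of the 12196 genes.

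**Figure D1:**
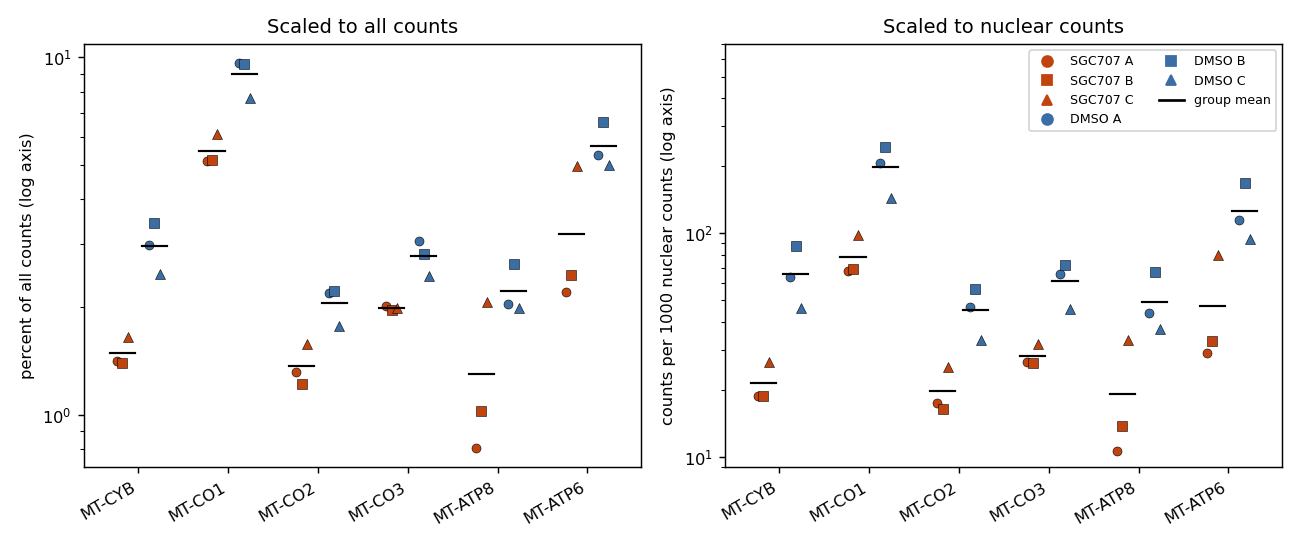
Level of each gene in each library as a percent of all counts (left) and as counts per 1000 nuclear counts (right), both on log axes, with SGC707 left of DMSO for each gene, symbols for the replicate letter and lines for the group means. On the right every SGC707 point lies below every DMSO point of its gene, with SGC707 C the highest of its group; on the left MT-ATP8 overlaps between the groups.

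MT-CYB encodes cytochrome b, the haem-bearing core of complex III and its only mitochondrially encoded subunit. It had 18.6, 18.7 and 26.5 counts per 1000 nuclear counts in SGC707 libraries A, B and C, against 64.0, 87.5 and 46.5 in DMSO libraries A, B and C. The groups did not overlap on this scale, and SGC707 A and B were nearly equal while the DMSO libraries were spread widely. It had the lowest log2 fold change of the 6 genes, -1.68 (SE 0.33, 95% interval -2.45 to -0.92, edgeR adjusted p = 0.173). As a percent of all counts it averaged 1.49% ± 0.144 with SGC707 and 2.97% ± 0.481 with DMSO (SD, n = 3 each), again without overlap.

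MT-CO1 encodes the catalytic subunit of cytochrome c oxidase, complex IV, where oxygen is reduced. It was the member with the most counts, at 67.5, 69.3 and 97.6 per 1000 nuclear counts in SGC707 libraries A, B and C, against 206.1, 243.3 and 143.8 in DMSO libraries A, B and C. SGC707 C lay nearer to DMSO C than the other SGC707 libraries did, without reaching it. The log2 fold change was -1.39 (SE 0.34, 95% interval -2.18 to -0.60, edgeR adjusted p = 0.231). MT-CO2 encodes the subunit that takes electrons from cytochrome c. It had 17.4, 16.4 and 25.3 counts per 1000 nuclear counts in SGC707 libraries A, B and C, against 46.8, 56.4 and 33.3 in DMSO libraries A, B and C, and the groups did not overlap. Its log2 fold change was -1.26 (SE 0.31, 95% interval -1.98 to -0.54, edgeR adjusted p = 0.231).

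MT-CO3 encodes the remaining core subunit of complex IV, which carries no metal centre. It had 26.7, 26.4 and 31.9 counts per 1000 nuclear counts in SGC707 libraries A, B and C, against 65.7, 71.7 and 45.8 in DMSO libraries A, B and C. Its SGC707 libraries were the closest together of the 6 genes: as a percent of all counts they stood at 2.02%, 1.97% and 1.99%, against 3.07%, 2.82% and 2.44% in DMSO libraries A, B and C. Its log2 fold change was the nearest to 0 of the 6, at -1.17 (SE 0.27, 95% interval -1.80 to -0.53, edgeR adjusted p = 0.202).

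MT-ATP6 encodes the membrane subunit that forms the proton path of ATP synthase, complex V. It had 29.1, 33.0 and 79.4 counts per 1000 nuclear counts in SGC707 libraries A, B and C, against 114.4, 167.2 and 93.7 in DMSO libraries A, B and C. SGC707 C was more than double SGC707 A and B and came close to DMSO C, yet the groups did not overlap. The log2 fold change was -1.44 (SE 0.48, 95% interval -2.55 to -0.34, edgeR adjusted p = 0.299). MT-ATP8 encodes a small membrane subunit of the same enzyme. It had 10.7, 13.7 and 33.1 counts per 1000 nuclear counts in SGC707 libraries A, B and C, against 43.8, 67.2 and 37.2 in DMSO libraries A, B and C. As a percent of all counts the groups overlapped, since SGC707 C at 2.07% lay above DMSO A at 2.05% and DMSO C at 1.98%. Its log2 fold change was -1.40 (SE 0.49, 95% interval -2.53 to -0.27, edgeR adjusted p = 0.309). Both genes had wider intervals than the other 4.

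The scaling between libraries set the size of these values and, for 2 genes, the call. With nuclear counts as the library size the 6 log2 fold changes ran from -1.63 for MT-CYB to -1.11 for MT-CO3, and 0 were called, beside 0.0164% of tested genes called lower. With all counts as the library size they ran from -0.996 for MT-CYB to -0.48 for MT-CO3. MT-CYB and MT-CO1 passed (edgeR adjusted p = 0.0435 for each), where 0.254% of tested genes were called lower and 21.1% higher. In that fit 49.1% of tested genes had an unadjusted p under 0.05, beside 12.8% with TMM. The unadjusted edgeR p of MT-CO1 was 0.00463 there and 0.00381 with TMM. That scaling put the median of all tested genes at 0.69 instead of 0.02, so relative to the median gene the members differed less between scalings than their own values did. All 6 fold changes were negative under all 3 scalings. DESeq2 called 6 of 6 members (adjusted p from 9.37e-06 to 0.0467) and 2.04% of tested genes lower, and limma-voom called 0 (adjusted p from 0.191 to 0.279), beside 0.0164% of tested genes lower.

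**Figure D2:**
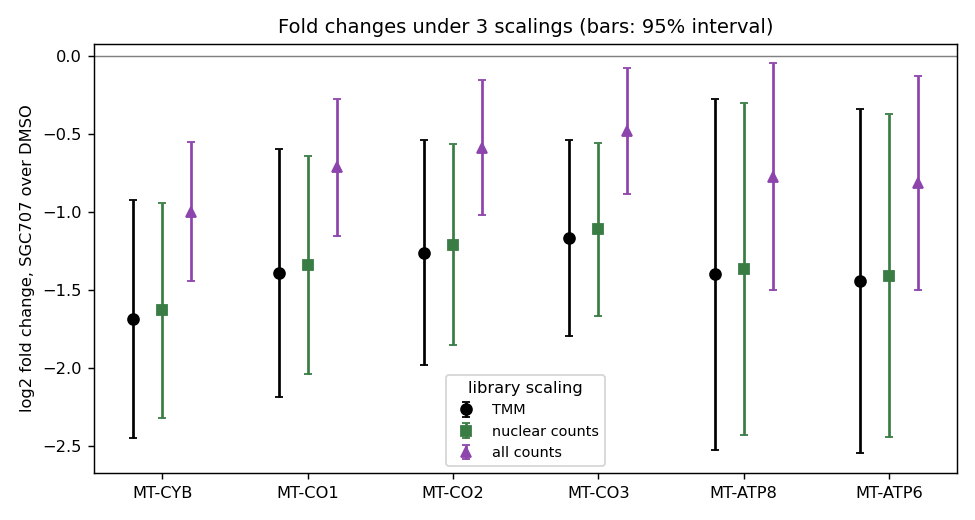
log2 fold change of each gene, SGC707 over DMSO, from edgeR with TMM factors, with nuclear counts and with all counts as the library size; bars are 95% intervals. The points with all counts lie nearest to 0, between -0.996 and -0.48, and no interval, unadjusted for the number of genes, reaches 0.

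In edgeR with TMM scaling, 1 library decided the call. Without SGC707 C, 6 of 6 members passed (edgeR adjusted p from 0.0272 to 0.0328), where 5.53% of tested genes were called lower, and the log2 fold changes of MT-ATP8 and MT-ATP6 were -2.12 and -2.11. Without any one of the other 5 libraries 0 passed, with adjusted p from 0.112 to 0.862; tested genes called lower were 0.0326% without SGC707 A, 0.0403% without DMSO C and 0% without SGC707 B, DMSO A or DMSO B. Of the members, 4 to 6 had an unadjusted p under 0.05 in those 5 fits, as did 5.66% to 13.8% of tested genes. Over all 6 fits the values ran from -1.92 to -1.41 for MT-CYB, from -1.63 to -1.20 for MT-CO1, from -1.53 to -1.06 for MT-CO2, and from -1.35 to -1.02 for MT-CO3. The highest of each of these 4 ranges was the fit without DMSO B. Every value stayed negative for all 6 genes.

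**Figure D3:**
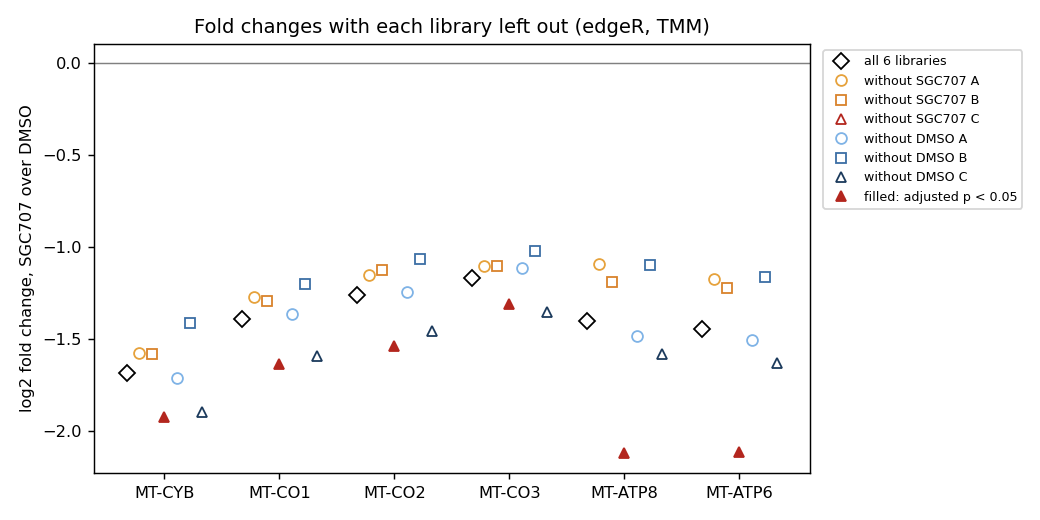
log2 fold change of each gene, SGC707 over DMSO, with all 6 libraries and with each library left out in turn; filled symbols mark an edgeR adjusted p under 0.05. The filled triangles without SGC707 C are the only calls, and they lie furthest from the other fits for MT-ATP8 (-2.12) and MT-ATP6 (-2.11).

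The make-up of the 6 genes does not depend on the scaling between libraries. MT-CYB took 10.96%, 10.5% and 9.03% of their counts in SGC707 libraries A, B and C, against 11.8%, 12.6% and 11.6% in DMSO libraries A, B and C. It was the only member whose share did not overlap between the groups (exact permutation p = 0.1, adjusted over the 6 shares p = 0.6), so 1 of 6 separated. MT-CO3 took 15.7%, 14.9% and 10.8% with SGC707 and 12.1%, 10.3% and 11.5% with DMSO (exact permutation p = 0.3, adjusted p = 0.6). MT-CO1 was the largest in every library, at 37.3% ± 3.58 with SGC707 and 36.4% ± 1.56 with DMSO (SD, n = 3 each; exact permutation p = 0.8, adjusted p = 0.8). MT-CO2 averaged 9.35% ± 0.806 with SGC707 and 8.37% ± 0.263 with DMSO (SD, n = 3 each; exact permutation p = 0.2, adjusted p = 0.6). None of the 6 shares passed, which 3 libraries a group cannot do in this test.

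The ATP synthase genes split the SGC707 libraries. MT-ATP6 took 17.1%, 18.6% and 27.0% of the counts of the 6 genes in SGC707 libraries A, B and C, so that A and B lay below and C above its 21.2%, 24.1% and 23.4% in DMSO libraries A, B and C (exact permutation p = 0.6, adjusted p = 0.8). MT-ATP8 did likewise, at 6.28%, 7.73% and 11.3% with SGC707 and 8.11%, 9.69% and 9.29% with DMSO (exact permutation p = 0.8, adjusted p = 0.8). These are the members with the lowest GC content, 39.6% for MT-ATP8 and 44.2% for MT-ATP6, where the other 4 lie between 46.2% and 46.6%, and the GC correlation was most negative in SGC707 C (-0.77) and was -0.13 in DMSO C. The part of GC content in this split was not tested. The pair kept nearly the same ratio in every library, with 0.367, 0.416 and 0.417 MT-ATP8 counts per MT-ATP6 count in SGC707 libraries A, B and C and 0.383, 0.402 and 0.397 in DMSO libraries A, B and C.

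**Figure D4:**
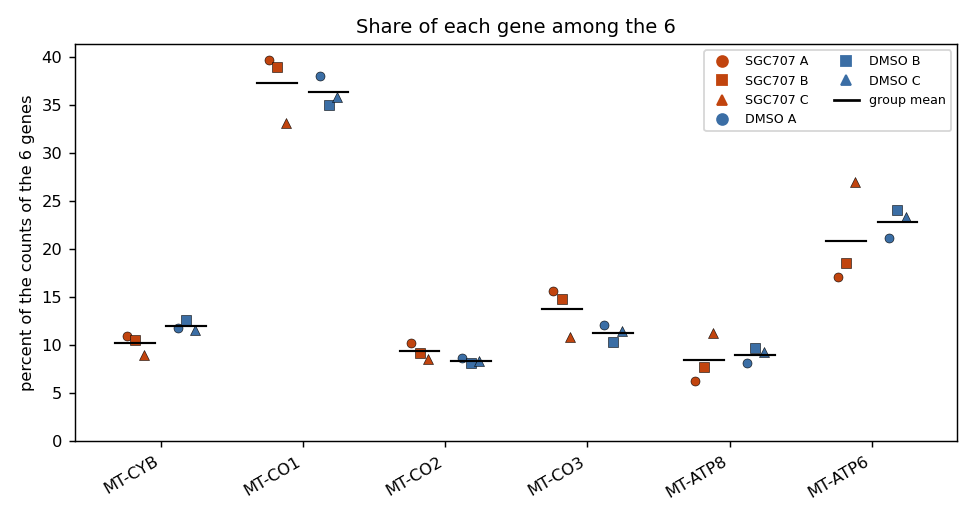
Share of each gene among the counts of the 6 genes, in percent, per library, with SGC707 left of DMSO, symbols for the replicate letter and lines for the group means. MT-CYB is the only gene without overlap, and the SGC707 C triangle stands opposite to SGC707 A and B for MT-ATP6 (27.0% against 17.1% and 18.6%).

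Ratios of raw counts were computed for some pairs within the set, not for all. Of those computed, 3 separated the groups, each taken per MT-CO1 count. MT-CYB had 0.276, 0.270 and 0.272 counts per MT-CO1 count in SGC707 libraries A, B and C, against 0.310, 0.360 and 0.323 in DMSO libraries A, B and C. The SGC707 libraries, C included, were close together and below all DMSO libraries. MT-CO3 had 0.395, 0.381 and 0.326 counts per MT-CO1 count with SGC707, against 0.319, 0.295 and 0.319 with DMSO, also without overlap but in the other direction. MT-CO2 stood higher likewise, at 0.257, 0.236 and 0.259 counts per MT-CO1 count with SGC707, against 0.227, 0.232 and 0.232 with DMSO. MT-CO3 per count of its upstream neighbour MT-ATP6 stood at 0.918, 0.799 and 0.401 with SGC707 and 0.574, 0.429 and 0.489 with DMSO, with SGC707 C below all 3 DMSO libraries. These ratios were picked after the values were seen and carry no test.

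Per length, the order of the levels was the same in both groups: MT-ATP8, MT-ATP6, MT-CO1, MT-CO3, MT-CO2 and MT-CYB. In counts per kilobase and 1000 nuclear counts MT-ATP8 averaged 92.6 ± 58.9 with SGC707 and 238.6 ± 76.1 with DMSO, and MT-CYB 18.7 ± 3.98 with SGC707 and 57.8 ± 18.1 with DMSO (SD, n = 3 each). MT-CO1 lay at 43.8 to 63.3 with SGC707 and 93.2 to 157.8 with DMSO, above MT-CO3 at 33.6 to 40.6 and 58.4 to 91.5 without overlap. The ranges of neighbours overlapped for MT-ATP8 with MT-ATP6, MT-ATP6 with MT-CO1, and MT-CO3 with MT-CO2 in both groups, and for MT-CO2 with MT-CYB in DMSO but not in SGC707. Within each single library the order was nonetheless the same, except in SGC707 A, where MT-CO1 (43.8) stood above MT-ATP6 (42.7). MT-ATP8 is 207 bases long and shares bases with MT-ATP6, so its level per length is uncertain.

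The 7 mitochondrially encoded subunit genes of complex I, the entry point for electrons from NADH, give the nearest comparison. There were 1.13, 1.10 and 0.947 counts of the 6 genes per count of complex I genes in SGC707 libraries A, B and C, against 0.898, 0.814 and 0.843 in DMSO libraries A, B and C. The groups did not overlap, and the mean log2 of the ratio was 0.31 higher with SGC707 (exact permutation p = 0.1). The complex I genes had a median log2 fold change of -1.63, with MT-ND4L lowest at -1.92 (edgeR adjusted p = 0.202) and MT-ND6 highest at 1.25 (edgeR adjusted p = 0.115). DESeq2 called every complex I gene (adjusted p up to 0.0293), as did edgeR without SGC707 C (adjusted p up to 0.0277). With all counts as the library size edgeR called each but MT-ND3 (adjusted p = 0.104). Every call was lower except that of MT-ND6, which was higher. Tested genes called lower and higher were 2.04% and 0.426%, 5.53% and 3.73%, and 0.254% and 21.1% in the same order. MT-ND6 is the one mitochondrially encoded protein gene that lies on the minus strand. Averaging log2 counts with equal weight for each gene gave a difference of -0.19 with MT-ND6 included and 0.23 without it, an alternative chosen after seeing the data. Whether the counting used strand is not stated in the sources used here, so reads of a gene and of its antisense RNA may not have been told apart. Of the complex I genes, 6 of 7 had every SGC707 library below every DMSO library in normalised CPM, as did 9.78% of tested genes. MT-ND6 went the other way, at 0.103 to 0.114 per 1000 nuclear counts with SGC707 and 0.0363 to 0.0499 with DMSO. As a plain percent of all counts MT-ND3 overlapped between the groups, at 0.1934% in SGC707 C and 0.1929% in DMSO A.

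The nuclear-encoded partners of these subunits gave mostly positive values, none past the test. Of 9 nuclear subunit genes of complex III 0 passed edgeR's test, 8 log2 fold changes were above 0, and the median was 0.38. UQCRH, a small hinge subunit, stood at 0.69 (edgeR adjusted p = 0.243), UQCR10 at 0.93 (edgeR adjusted p = 0.270), and the core subunit gene UQCRC1 at 0.58 (edgeR adjusted p = 0.415). Of 12 of complex IV, 0 passed and 8 were positive, with a median of 0.12; COX6B1 stood at 0.62 (edgeR adjusted p = 0.303). Of 16 of complex V, 0 passed and 10 were positive, with a median of 0.12; ATP5IF1, which encodes the inhibitor of ATP hydrolysis by the enzyme, stood at -0.54 (edgeR adjusted p = 0.283) and at 0.15 with all counts as the library size. Over all tested genes the median was 0.02, and 47.2% were negative. With 1 library left out the medians ran from 0.29 to 0.55 for complex III, from 0.06 to 0.21 for complex IV (both from without SGC707 A to without SGC707 C) and from 0.04 without SGC707 A to 0.27 without DMSO C for complex V. With all counts as the library size the medians were 1.05 for complex III, 0.81 for complex IV and 0.79 for complex V. Unadjusted p-values under 0.05 were found for 2 of 9 genes of complex III and 1 of 12 of complex IV, all higher. Of the 16 of complex V, 1 higher and 1 lower gene had such a value. Of all tested genes 12.8% did, in either direction.

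None of the genes that serve the members more directly passed the test. Among 28 assembly and translation factors of complexes III to V found in the table, 0 passed and 21 were positive, with a median of 0.26 (0.21 without SGC707 A to 0.37 without SGC707 C; 0.93 with all counts as the library size). COA5, needed for assembly of cytochrome c oxidase, stood at 0.48 (edgeR adjusted p = 0.311), COX18, which inserts part of MT-CO2's product into the inner membrane, at 0.41 (edgeR adjusted p = 0.454), and ATPAF1, an assembly factor of ATP synthase, at -0.45 (edgeR adjusted p = 0.384). Among 24 genes of mitochondrial transcription and RNA processing, 0 passed and 15 were positive, with a median of 0.13 (0.06 without DMSO B to 0.20 without DMSO C; 0.80 with all counts as the library size). FASTKD1 stood at 0.40 (edgeR adjusted p = 0.414) and GRSF1, an RNA-binding protein of mitochondrial RNA granules, at 0.41 (edgeR adjusted p = 0.440). SUPV3L1, the helicase of the mitochondrial RNA-degrading complex, stood at -0.34 (edgeR adjusted p = 0.479) and SLIRP, which binds mitochondrial mRNAs, at -0.37 (edgeR adjusted p = 0.481). Unadjusted p-values under 0.05 were found for 1 higher and 1 lower assembly gene and for 0 RNA processing genes, beside 12.8% of all tested genes. DESeq2 and limma-voom also called 0 genes in each of the 5 lists, with 0.426% of tested genes called higher by DESeq2. Without SGC707 C, edgeR called higher 2 of 9, 1 of 12 and 2 of 16 subunit genes of complexes III, IV and V, 1 of 28 assembly genes and 0 of 24 RNA processing genes, beside 3.73% of tested genes. With all counts as the library size the counts were 5, 2, 6, 8 and 8 in the same order, beside 21.1% of tested genes. With all counts as the library size ATPAF1 (0.22), SUPV3L1 (0.30) and SLIRP (0.34) turned positive, below the 0.69 median of all genes.

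**Figure D5:**
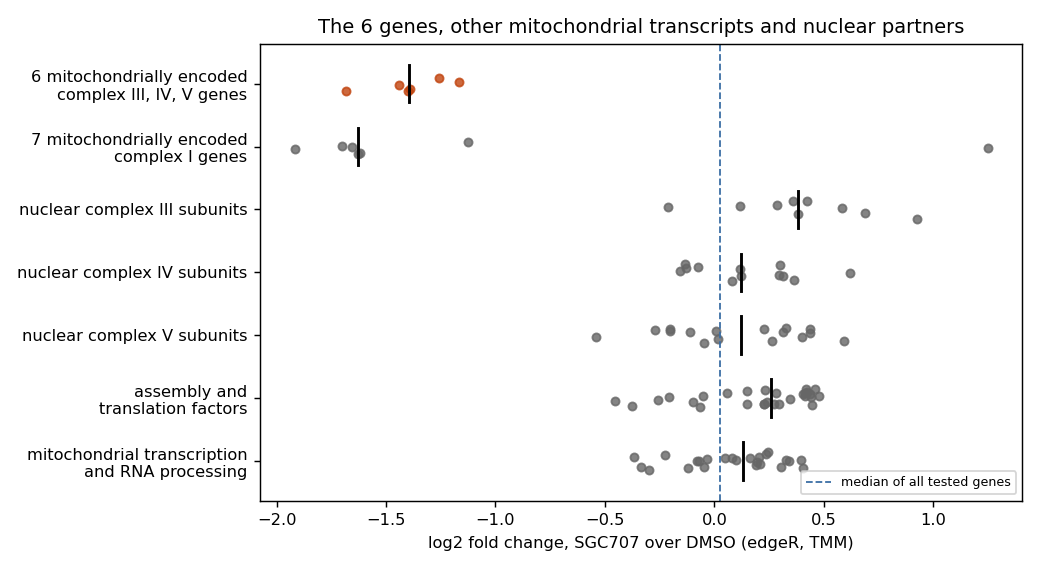
log2 fold change (SGC707 over DMSO, edgeR with TMM) of the 6 genes, the 7 mitochondrially encoded complex I genes and 5 lists of nuclear genes, 1 point a gene, with black bars for medians and a dashed line for the median of all tested genes. The 6 genes lie between -1.68 and -1.17, and the medians of the nuclear lists lie between 0.12 and 0.38.

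Some nuclear genes followed the members closely across the 6 libraries. Likeness was measured as the root mean square difference between a gene's centred log2 normalised CPM and the mean of the 6 members, over 10179 nuclear genes with a mean of at least 5 CPM. The 5 nearest were KMT2E (0.11), CCNK (0.15), CLIP3 (0.16), NCAM1 (0.19) and ZBED3 (0.19 on the log2 scale). For comparison, the members themselves lay between 0.10 for MT-CO1 and 0.26 for MT-ATP8 from their own mean, which each of them enters. The mitochondrially encoded complex I genes, which do not enter it, lay between 0.12 for MT-ND1 and 0.31 for MT-ND4L, with MT-ND6 apart at 1.42. KMT2E had 204.8, 200.4 and 337.7 normalised CPM in SGC707 libraries A, B and C, against 619.8, 728.4 and 425.4 in DMSO libraries A, B and C, so it shared the high SGC707 C and the low DMSO C. With 6 libraries and this many genes such a ranking is a description only.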

How the data were processed

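The authors deposited whole-number read counts per gene symbol for 6 libraries, not scaled between them; HISAT2, StringTie and GRCh38 are named per the submitters' processing notes. Tool versions, the annotation, any strand setting and the treatment of shared reads: not given in the sources used here. Percentages, counts per 1000 nuclear counts (rows without the MT- prefix) and counts per kilobase were computed from these counts. Tests used edgeR 4.0.16 in R 4.3.3: filterByExpr (12196 genes kept), TMM, robust quasi-likelihood fits, no covariate, and Benjamini-Hochberg adjustment at 0.05. DESeq2 1.42.0 and limma 3.58.1 served as alternatives, as did other scalings and filters and leaving out each library. Single values were compared by two-sided exact permutation. Positions, lengths, GC content and sequences came from GENCODE release 29; identity with nuclear copies came from global alignment. All members are named; partner genes named are among the 4 with the smallest p in each list, and the likeness ranking names 5 genes. SCO2, on the assembly list, has no row in the table used here. The members and lists were chosen with earlier results of these data known. Figures were drawn with matplotlib 3.10.9.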

Additional observations from a re-analysis of the deposited data

How the results depend on the processing

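The 6 log2 fold changes were negative in all 84 alternative values (each gene under each setting); in 70 the call was as reported and in 14 it became significant (DESeq2 and the fit without SGC707 C for 6 members each, all counts as the library size for 2). The number of members past the threshold was thus 6 with DESeq2, 2 with all counts as the library size, and 0 to 6 with 1 library left out. Over all genes 3 passed, against 0 at an adjusted p under 0.01, 2599 with all counts as the library size, 6 with no filter on low counts, 301 with DESeq2, 0 with the replicate block and 0 to 1147 with 1 library left out. Where edgeR called 0 genes, 1534 had an unadjusted p under 0.05 with the replicate block, 967 without SGC707 B, 769 without DMSO A and 703 without DMSO B. Whether the letters pair the libraries cannot be decided here, since deviations from a group mean depend on each other within the group. Same-letter correlations of these deviations were 0.0795 for A, -0.0228 for B and 0.0998 for C. For A and C the same-letter value was the highest of that SGC707 library with any DMSO library, and for B it was not. With the replicate block the log2 fold changes of the members ran from -1.67 to -1.15 (edgeR adjusted p from 0.287 to 0.376). Against the TMM effective library size the share of the 6 genes differed by -19.7 percentage points instead of -9.79. The ratio to complex I genes turned to -0.188 with equal weight per gene; MT-ND6 is 1 of the 7 genes there and has a positive fold change. With all 13 mitochondrially encoded genes as the denominator, mean log2 shares differed by -0.0854 for MT-CYB (-0.244 among the 6), 0.192 for MT-CO1 (0.0337), 0.315 for MT-CO2 (0.157), 0.0203 for MT-ATP8 (-0.138) and 5.76e-05 for MT-ATP6 (-0.158); complex I genes enter that denominator. For MT-CO3 it was 0.429 (0.271). As a percent of the counts of all 13, MT-CYB overlapped between the groups. MT-CO2 did not, at 4.19% to 5.41% with SGC707 and 3.65% to 4.10% with DMSO. With 1 library left out, the differences among the 6 ran from -0.0135 without SGC707 A (-0.000939 without SGC707 B) to 0.116 without SGC707 C for MT-CO1, and between the fits without SGC707 A and without SGC707 C from 0.0528 to -0.369 for MT-ATP8, from -0.0282 to -0.358 for MT-ATP6, from 0.0914 to 0.214 for MT-CO2, from 0.169 to 0.436 for MT-CO3 and from -0.300 to -0.159 for MT-CYB. Beyond these changes of denominator, weights, threshold or samples, the cause of the shifts was not tested. Counting error is negligible at this depth; the number of libraries limits the precision.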
